A study of Mus musculus with 13 samples.

Results

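The genes described here are 10 genes of the NRF2 antioxidant response, chosen by name: *Nfe2l2*, *Keap1*, *Nqo1*, *Hmox1*, *Gclc*, *Gclm*, *Txnrd1*, *Srxn1*, *Slc7a11* and *Gsr*. They are 10 of 33618 gene identifiers in the count table, and all 10 had enough counts to be tested. They were measured by bulk RNA-Seq of whole parametrial white adipose tissue (pmWAT), the gonadal fat depot of female mice, in 7 libraries labelled fl/fl and 6 labelled iADKO, 1 per mouse. The fl/fl mice carried loxP sites around exons 10 and 11 of both copies of *Lmna*, which encodes lamin A/C of the nuclear lamina, and had no Cre. The iADKO mice carried the same floxed alleles and 1 copy of *Adipoq*-CreERT2, a tamoxifen-activated Cre expressed from the adiponectin promoter, so that recombination was directed to adipocytes and not to the other cells of the tissue. Mice of both genotypes received tamoxifen at 50 mg/kg on 5 consecutive days when 12 to 14 weeks old, and the fat was collected 2 weeks posttamoxifen.

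NRF2, the product of *Nfe2l2*, is a transcription factor that is kept low by KEAP1, an adaptor that hands it to a ubiquitin ligase. When oxidants or electrophiles modify cysteines of KEAP1, NRF2 escapes degradation, pairs with a small MAF protein and binds antioxidant response elements (AREs) near genes of glutathione synthesis, thioredoxin reduction, heme breakdown and quinone detoxification. Because this control acts largely on the protein, the mRNA of *Nfe2l2* is not a readout of NRF2 activity. In adipose tissue the pathway operates in adipocytes as well as in macrophages, in which *Hmox1* is a well-known product.

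Between 18854223 and 19776491 reads per library were counted on genes. Levels are CPM, the counts of a gene scaled to a common library size by the TMM method. The TMM factors of the iADKO libraries, 1.05 to 1.10, lay above those of the fl/fl libraries, 0.892 to 1.02. Differences are log2 fold changes of iADKO over fl/fl from edgeR's quasi-likelihood test, with Benjamini-Hochberg adjustment over 16753 genes and a threshold of 0.05. *Lmna* itself showed no drop in iADKO libraries, with 96.7 ± 11.5 CPM (SD, n = 6) against 84.7 ± 7.51 (SD, n = 7) in fl/fl (log2 fold change 0.19 ± 0.079 SE, adjusted p = 0.0785, edgeR). Counts over the whole gene do not separate the floxed exons, so every direction below rests on the labels. All 8 adipocyte markers were lower in iADKO, and 5 of 9 macrophage markers were higher. Markers of other cell types were also called: 2 of 4 T cell markers and 2 of 4 B cell markers were higher and 2 of 5 endothelial markers were lower, with T cell sums of 11.7 to 18.7 CPM in fl/fl against 20.8 to 25.3 CPM in iADKO. No marker of progenitors and fibroblasts, mesothelium, smooth muscle, neutrophils, erythroid cells or skeletal muscle was called (edgeR), although all 4 smooth muscle markers were higher at an unadjusted p under 0.05, as were 1 progenitor and 1 mesothelial marker. The part of these cells in the results was not tested. Of the fl/fl libraries, replicate 5 had the highest summed macrophage marker level and the lowest summed adipocyte marker level. Of the iADKO libraries, replicate 6 had the reverse. Log2 fold changes that rest on these libraries are given with and without them. Correlations were computed only with them. In bulk tissue, fewer cells of a type and less RNA per cell cannot be told apart.

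Of the 10 genes, 4 were higher in iADKO pmWAT and 0 were lower, and their median log2 fold change was 0.21. With the animal-number series as a block, or with the macrophage marker level as a covariate, 0 of the 10 were called (edgeR), so the calls given below hold for the fit without these terms. The genes that rose were *Nfe2l2*, *Hmox1*, which encodes the heme-degrading enzyme heme oxygenase 1, *Txnrd1*, which encodes cytosolic thioredoxin reductase, and *Srxn1*, which encodes sulfiredoxin. Over all genes tested, 14.1% were higher and 16.3% were lower, with a median log2 fold change of 0.03, and 30.5% were called in either direction. At an unadjusted p under 0.05, which 42.6% of all genes had in either direction, 4 of the 10 genes were higher and 2 (*Keap1* and *Gclm*) were lower with edgeR. The Wald test of DESeq2 called both *Keap1* and *Gclm* lower after adjustment. For none of the 10 genes were the fl/fl and iADKO libraries fully separated, while 6.64% of all genes tested had groups that did not overlap.

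**Figure D1:**
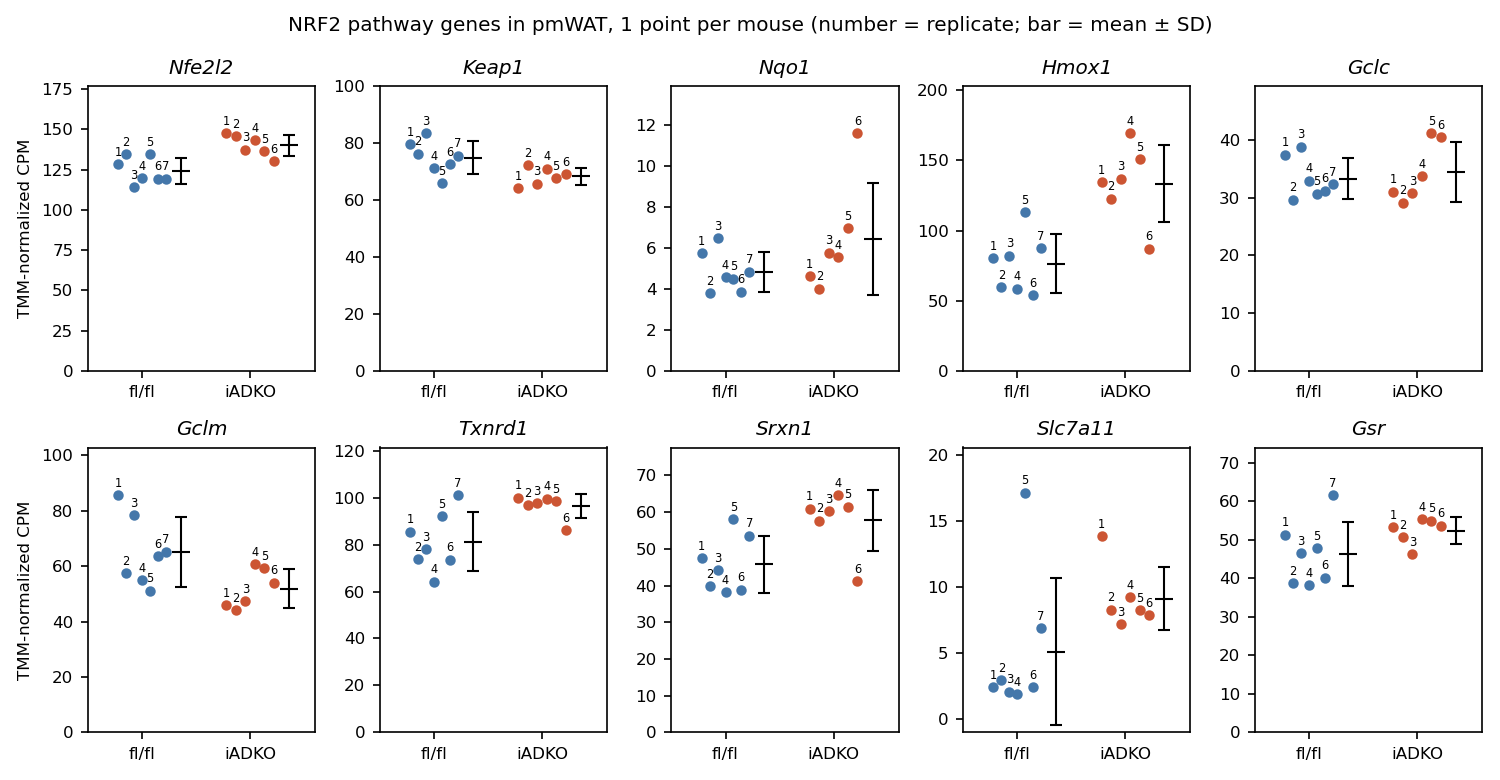
TMM-normalized CPM (y axis, linear from 0, and from -1 for *Slc7a11*) of the 10 genes in each of 7 fl/fl (blue) and 6 iADKO (orange) mice, with the replicate number above each point and the mean ± SD as a black bar. *Nfe2l2* and *Hmox1* each had 5 iADKO libraries above the highest fl/fl library, and fl/fl replicate 5 carried the highest value of *Slc7a11*.

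The levels of the 10 genes spanned a wide range in control fat. Per kilobase of annotated exon, the mean level in fl/fl was highest for *Hmox1*, at 43.4 CPM per kb, followed by *Nfe2l2* at 22.8 CPM per kb. *Keap1* had 13.2 CPM per kb and *Txnrd1* 11.5 CPM per kb, and the ranges of both over the 7 mice overlapped. *Gclm* had 8.20, *Gsr* 6.68, *Gclc* 5.31 and *Srxn1* 4.87 CPM per kb, and each of these overlapped its neighbour in that order. The lowest levels per length were those of *Nqo1*, at 1.76 CPM per kb, and *Slc7a11*, at 0.33 CPM per kb. With the length of the canonical transcript in place of all exons, *Txnrd1* (24.4 CPM per kb) and *Keap1* (23.4 CPM per kb) exchanged places, as did *Gsr* (17.3 CPM per kb) and *Gclm* (10.3 CPM per kb), and the rest of the order stayed as given.

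Because NRF2 acts through AREs, the 300 bases before the start of each gene's canonical transcript were searched on both strands for the ARE core letters TGACNNNGC and the variant TGAGNNNGC, where N is any base. Either spelling was found in 6 of the 10 genes, in 3 each, and in 25.3% of 21770 promoters of protein-coding genes, of which 11.2% held TGACNNNGC and 16% held TGAGNNNGC. The matches and 60 bases around them are printed on the strand of the gene (GRCm39 sequence, GENCODE vM39 starts), with the match in capitals. A match on the other strand therefore reads as its reverse complement. Only the *Srxn1* match nearest the start, TGAGTCAGC, also holds the letters of an AP-1 site (TGACTCA or TGAGTCA). Of the genes that rose, all 4 had a match, but so did *Gclm* and *Slc7a11*, which did not pass the test.
*Nfe2l2*, chr2:75535213-75535272, minus strand, match from base -262: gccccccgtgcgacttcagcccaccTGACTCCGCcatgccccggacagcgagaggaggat
*Hmox1*, chr8:75820156-75820215, plus strand, match from base -60: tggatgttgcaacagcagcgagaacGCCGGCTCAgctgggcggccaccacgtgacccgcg
*Txnrd1*, chr10:82694923-82694982, plus strand, match from base -65: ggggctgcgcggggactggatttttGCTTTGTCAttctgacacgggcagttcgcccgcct
*Srxn1*, chr2:151947374-151947433, plus strand, match from base -45: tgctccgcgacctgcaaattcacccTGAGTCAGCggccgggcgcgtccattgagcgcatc
*Gclm*, chr3:122039047-122039106, plus strand, match from base -54: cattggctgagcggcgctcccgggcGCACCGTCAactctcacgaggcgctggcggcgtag
*Slc7a11*, chr3:50398125-50398184, minus strand, match from base -96: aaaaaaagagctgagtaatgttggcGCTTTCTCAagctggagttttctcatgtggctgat

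*Srxn1* held a further match to TGAGNNNGC from base -158. The windows of *Keap1*, *Nqo1*, *Gclc* and *Gsr* held neither spelling, which says only that these letters are not in that window. The well-studied enhancers of *Hmox1* lie farther upstream and were not searched. *Txnrd1* has several promoters, and the window shown is that of the canonical transcript, inside the span of the gene.

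Of the regulators, the mRNA of NRF2 itself rose by a small amount. *Nfe2l2* (ENSMUSG00000015839, chromosome 2, 75504739 to 75534985, minus strand) had a lowest, median and highest level of 114.2, 119.5 and 134.7 CPM in fl/fl and 130.4, 140.4 and 147.4 CPM in iADKO. In 5 of the 6 iADKO mice the level lay above the highest fl/fl mouse. The fold change was 1.13 (log2 0.17 ± 0.052 SE, 95% interval 0.06 to 0.29, adjusted p = 0.0218, edgeR). A noncoding gene on the opposite strand, *E030042O20Rik*, overlaps *Nfe2l2* and had 581 counts over the 13 libraries, against at least 1976 counts of *Nfe2l2* in each.

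*Keap1* (ENSMUSG00000003308, chromosome 9, 21141026 to 21150679, minus strand), which encodes the repressor, had lowest, median and highest levels of 65.8, 75.6 and 83.4 CPM in fl/fl and 64.3, 68.4 and 72.3 CPM in iADKO. All 6 iADKO values were below the fl/fl median, and 5 of 7 fl/fl mice were above the highest iADKO mouse. The log2 fold change was -0.13 ± 0.055 SE, which did not pass the test (adjusted p = 0.0806, edgeR), passed it with DESeq2 (adjusted p = 0.0475) and was 0.07 with library totals as the only scaling. Without fl/fl replicate 5 it was -0.16 (adjusted p = 0.0223, edgeR). The ratio of *Nfe2l2* to *Keap1* in CPM, chosen after the values were seen, was 1.67 ± 0.205 (SD, n = 7) in fl/fl and 2.05 ± 0.134 (SD, n = 6) in iADKO, with ranges of 1.37 to 2.04 and 1.89 to 2.29 that overlapped.

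*Hmox1* had the largest fold change of the genes that rose. *Hmox1* (ENSMUSG00000005413, chromosome 8, 75820241 to 75827217, plus strand) had lowest, median and highest levels of 54.1, 80.2 and 113 CPM in fl/fl and 87.2, 135.5 and 169.1 CPM in iADKO. The groups met through fl/fl replicate 5, the highest of its group, and iADKO replicate 6, the lowest of its group. The fold change was 1.75 (log2 0.80 ± 0.181 SE, adjusted p = 0.00568, edgeR), and it was 1.00 on the log2 scale without these libraries.

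*Srxn1* and *Txnrd1* rose by smaller amounts. *Srxn1* (ENSMUSG00000032802, chromosome 2, 151947436 to 151957687, plus strand) encodes the enzyme that repairs overoxidized peroxiredoxins. Its lowest, median and highest levels were 38.2, 44.3 and 58.1 CPM in fl/fl and 41.3, 60.6 and 64.7 CPM in iADKO, and 4 of 6 iADKO mice were above every fl/fl mouse. The fold change was 1.26 (log2 0.34 ± 0.118 SE, adjusted p = 0.0447, edgeR). As for *Hmox1*, the highest fl/fl value was that of replicate 5 and the lowest iADKO value that of replicate 6.

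*Txnrd1* (ENSMUSG00000020250, chromosome 10, 82669785 to 82733546, plus strand) recycles thioredoxin in the cytosol with NADPH. Its lowest, median and highest levels were 64.2, 78.0 and 101.1 CPM in fl/fl and 86.2, 98.1 and 99.9 CPM in iADKO. The iADKO values fell inside the upper part of the fl/fl range, and 5 of 7 fl/fl mice were below the lowest of them. The fold change was 1.19 (log2 0.25 ± 0.089 SE, adjusted p = 0.0481, edgeR). The calls of *Txnrd1* and *Srxn1* were near the threshold, and each kept its call in 3 of the 13 fits that left out 1 library, namely those without fl/fl replicate 5, fl/fl replicate 7 or iADKO replicate 6. *Nfe2l2* and *Hmox1* kept theirs in all 13.

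Neither gene of the first enzyme of glutathione synthesis was called. Glutamate-cysteine ligase is made of a catalytic subunit, encoded by *Gclc*, and a modifier subunit that increases its activity, encoded by *Gclm*. *Gclc* (ENSMUSG00000032350, chromosome 9, 77661797 to 77701770, plus strand) had a median of 32.3 CPM in fl/fl, with a range of 29.6 to 38.8, and of 32.4 CPM in iADKO, with a range of 29.1 to 41.1. Its log2 fold change was 0.05 ± 0.094 SE (95% interval -0.16 to 0.25, adjusted p = 0.732, edgeR), and its sign depended on the way of fitting.

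*Gclm* (ENSMUSG00000028124, chromosome 3, 122039126 to 122065061, plus strand) had lowest, median and highest levels of 51.2, 63.7 and 85.7 CPM in fl/fl and 44.1, 50.7 and 60.7 CPM in iADKO. All 6 iADKO values lay below the fl/fl median, and 4 of 7 fl/fl mice were above the highest iADKO mouse. The log2 fold change was -0.33 ± 0.123 SE (95% interval -0.59 to -0.07, adjusted p = 0.0567, edgeR), and DESeq2 placed it on the other side of the threshold (adjusted p = 0.0305), as did edgeR without fl/fl replicate 4, fl/fl replicate 5 or iADKO replicate 4 (-0.37 to -0.38 on the log2 scale). The ratio of *Gclm* to *Gclc* in CPM, also chosen after the values were seen, was 1.95 ± 0.221 (SD, n = 7) in fl/fl and 1.52 ± 0.155 (SD, n = 6) in iADKO. The ranges, 1.67 to 2.29 and 1.34 to 1.80, overlapped.

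*Slc7a11*, which encodes the cystine importer xCT that supplies cysteine for glutathione, had the widest interval of the 10 genes. *Slc7a11* (ENSMUSG00000027737, chromosome 3, 49846975 to 50398070, minus strand) had lowest, median and highest levels of 1.88, 2.43 and 17.2 CPM in fl/fl and 7.22, 8.29 and 13.9 CPM in iADKO. Of the 7 fl/fl mice, 6 were below every iADKO mouse, and the remaining one, replicate 5, was above every iADKO mouse. With all libraries the log2 fold change was 0.83 ± 0.502 SE (95% interval -0.26 to 1.92, adjusted p = 0.227, edgeR), and without fl/fl replicate 5 it was 1.56 (adjusted p = 0.00136, edgeR). That library also had the highest summed macrophage marker level of all 13, at 4989 CPM over 9 markers. By the mean log2 CPM of the markers it was at 7.70, below 3 of the iADKO libraries, and the part of these cells in the value was not tested.

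*Gsr*, which encodes the reductase that regenerates glutathione, had lowest, median and highest levels of 38.2, 46.5 and 61.6 CPM in fl/fl and 46.2, 53.5 and 55.4 CPM in iADKO. *Gsr* (ENSMUSG00000031584, chromosome 8, 34142551 to 34188192, plus strand) gave a log2 fold change of 0.18 ± 0.101 SE (95% interval -0.04 to 0.39, adjusted p = 0.198, edgeR). Its iADKO values lay within the range of fl/fl, whose highest mouse was replicate 7, and without that mouse it was called (log2 fold change 0.26, adjusted p = 0.0265, edgeR).

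*Nqo1*, the quinone reductase gene often used as a standard NRF2 target, was low in this tissue. *Nqo1* (ENSMUSG00000003849, chromosome 8, 108113835 to 108129934, minus strand) had lowest, median and highest levels of 3.79, 4.56 and 6.47 CPM in fl/fl and 4.01, 5.67 and 11.6 CPM in iADKO. Its highest value was that of iADKO replicate 6, the iADKO library with the lowest *Hmox1* and *Srxn1*. The log2 fold change was 0.41 ± 0.221 SE (95% interval -0.06 to 0.89, adjusted p = 0.169, edgeR), and it was 0.16 without that library.

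**Figure D2:**
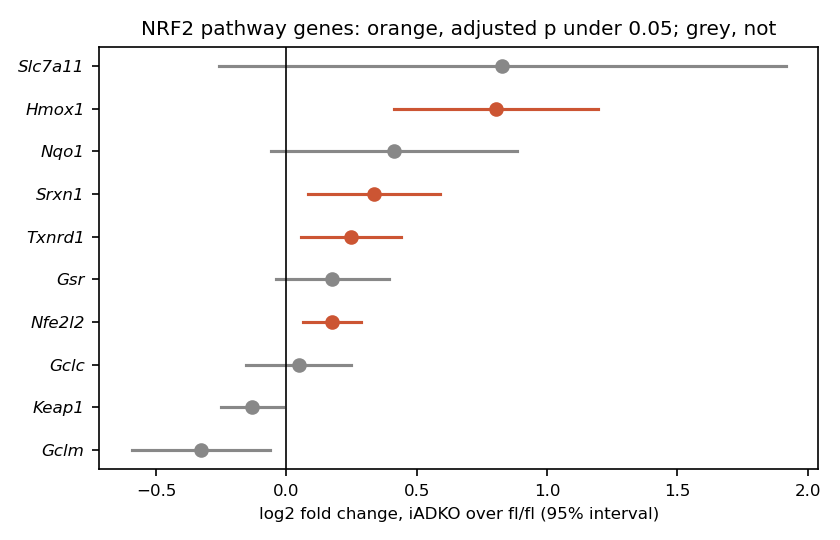
Log2 fold change of iADKO over fl/fl (x axis) with its 95% interval for each of the 10 genes, in orange where the adjusted p was under 0.05 (edgeR) and in grey where it was not. The interval of *Slc7a11*, from -0.26 to 1.92, was the widest of the 10, and that of *Nfe2l2*, from 0.06 to 0.29, was narrow and above 0.

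The levels of 5 of the genes moved with the macrophage markers from mouse to mouse. The markers were *Adgre1*, *Cd68*, *Itgam*, *Csf1r*, *Lyz2*, *Mrc1*, *Cd163*, *Fcgr1* and *Mertk*, and none was at 0 in all libraries. Their summed level ran from 1875 to 4989 CPM (median 2204) in fl/fl and from 2838 to 4908 CPM (median 4213) in iADKO. With the genotype means removed, Pearson's r between the mean log2 CPM of these markers and the log2 CPM of the gene was 0.86 for *Srxn1*, 0.81 for *Slc7a11*, 0.80 for *Hmox1*, 0.65 for *Txnrd1* and 0.61 for *Nfe2l2*. It was 0.27 for *Gsr*, -0.44 for *Gclm*, and -0.50 for each of *Keap1*, *Nqo1* and *Gclc*. These values are descriptions over 13 libraries in which gene and markers share the library and its scaling. By marker mean, fl/fl replicate 5 (7.70) lay apart from the other fl/fl mice (6.69 to 7.23). So did iADKO replicate 6 (7.08) from the other iADKO mice (7.66 to 7.86). No r was computed without these libraries, so how far the values rest on them was not tested.

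With the macrophage level as a covariate, none of the 10 genes was called by edgeR. The log2 fold change was then 0.27 for *Hmox1* (adjusted p = 0.462) and 0.08 for *Nfe2l2* (adjusted p = 0.625). Those of *Srxn1* and *Slc7a11* were -0.05 and -0.07. For *Keap1*, *Gclm*, *Txnrd1* and *Gsr* the change was smaller in size than without the covariate. It was larger for *Nqo1* (0.80 against 0.41, adjusted p with the covariate 0.0949, edgeR) and for *Gclc* (0.22 against 0.05, adjusted p with the covariate 0.367, edgeR). In that fit 524 of all genes were called, against 5104 without the covariate, and the covariate differs between the genotypes. Whether the macrophages account for the difference was not tested.

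**Figure D3:**
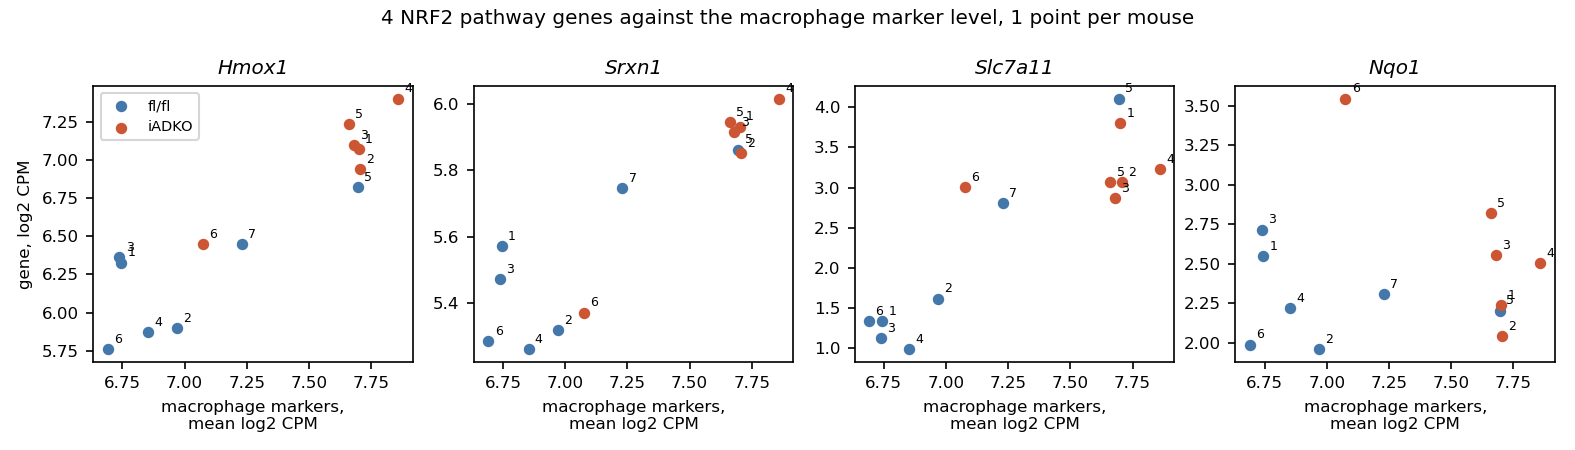
Log2 CPM of *Hmox1*, *Srxn1*, *Slc7a11* and *Nqo1* (y axes, each with its own scale) against the mean log2 CPM of 9 macrophage markers (x axis), 1 numbered point per mouse, fl/fl in blue and iADKO in orange. For *Hmox1* and *Srxn1*, fl/fl replicate 5 lies near the iADKO mice and iADKO replicate 6 near the fl/fl mice. For *Slc7a11*, fl/fl replicate 5 lies above every iADKO mouse. There iADKO replicate 6, at 3.00 log2 CPM, is within the range of the other iADKO mice (2.87 to 3.80). *Nqo1* is highest in iADKO replicate 6.

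Within the 10 genes, 2 sets of genes varied together over the 13 libraries once the genotype means were removed. *Hmox1* and *Srxn1* had the highest r of any pair, 0.95, and each was the gene most like the other among all 16753 tested. *Txnrd1* had an r of 0.85 with *Srxn1*, 0.82 with *Gsr* and 0.78 with *Hmox1*. In the other set, *Nqo1* and *Gclc* had an r of 0.87 and *Gclc* and *Gclm* of 0.76. Between *Nfe2l2* and *Nqo1* it was -0.62, and between *Nfe2l2* and *Gclc* -0.60.

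Over all genes tested, those most like each member by the same measure were mostly outside the pathway. For *Slc7a11* they were *Clec4e*, a C-type lectin receptor gene of myeloid cells (r = 0.97), and *Sel1l3* (r = 0.95). For *Srxn1*, *Ctsa*, which encodes lysosomal cathepsin A, came after *Hmox1* with an r of 0.95, and for *Hmox1*, *Ppic*, a cyclophilin gene, came after *Srxn1* with an r of 0.94. For *Nqo1* the most alike was *Gsto1*, an omega-class glutathione transferase gene (r = 0.93), followed by *Slc9a2* (r = 0.92). The most alike were *Htatip2* and *Chrna2* for *Gclm* (r = 0.96 and 0.94), *Gm10419* and *Entpd5* for *Gclc* (r = 0.95 and 0.94), and *Hspbp1* and *Smim36* for *Keap1* (r = 0.95 and 0.93). They were *Wdr41* and *Pnma2* for *Nfe2l2* (r = 0.91 and 0.90), *Trim27* and *Zfp783* for *Txnrd1* (r = 0.90 and 0.89), and *Ralgds* and *Pigx* for *Gsr* (r = 0.88 for both). All are descriptions over 13 libraries.

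Animal numbers in the library names fell into series, and 2 of them held both genotypes. Within the series 722 to 727, with 2 mice of each genotype, and within 747 to 765, with 3 fl/fl and 2 iADKO mice, the log2 fold change was above 0 in both for *Hmox1* (0.58 and 0.81), *Nfe2l2* (0.11 and 0.23), *Txnrd1* (0.27 and 0.32), *Srxn1* (0.13 and 0.44), *Slc7a11* (0.57 and 2.08) and *Gsr* (0.35 and 0.20). It differed in sign for *Gclm* (0.11 and -0.69), *Nqo1* (0.81 and -0.27), *Gclc* (0.22 and -0.22) and *Keap1* (0.03 and -0.23). These are values with no test, and the series 722 to 727 holds both fl/fl replicate 5 and iADKO replicate 6. With the series as a block, 0 of the 10 genes passed (edgeR), *Hmox1* having a log2 fold change of 0.70 (adjusted p = 0.0771) and *Nfe2l2* one of 0.17 (adjusted p = 0.106). The series 706 to 707 held only fl/fl mice (2), and 974 to 975 only iADKO mice (2). In that fit these mice add nothing to the genotype difference, and 8 residual degrees of freedom remain. Why the calls were lost was not tested.

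**Figure D4:**
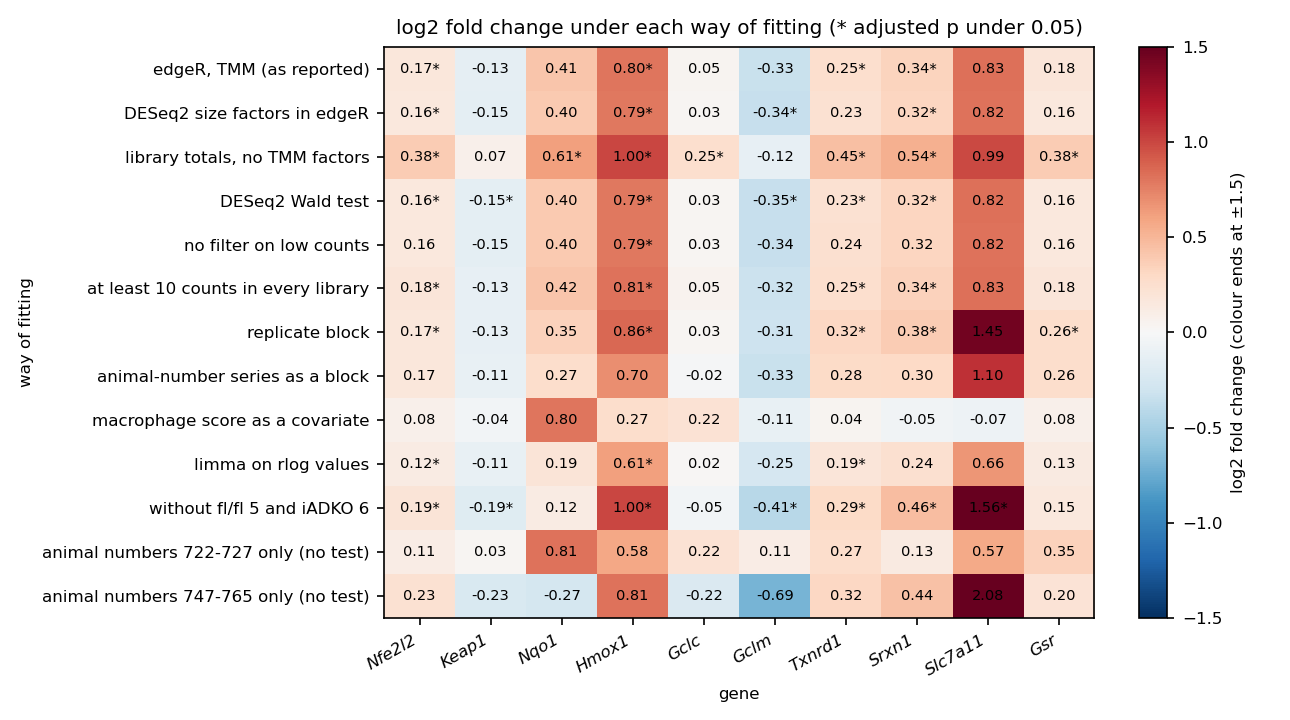
Log2 fold change of iADKO over fl/fl for each of the 10 genes (columns) under each way of fitting (rows), in colour and as the printed value, with an asterisk where the adjusted p was under 0.05. *Hmox1* was between 0.27 and 1.00 throughout, and *Keap1*, *Nqo1*, *Gclc*, *Gclm*, *Srxn1* and *Slc7a11* changed sign in at least 1 of them.

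To place the 10 genes in the wider system, 8 further lists of 102 genes were counted, of which 97 were tested. Of these, 12 were higher in iADKO and 32 were lower, which is 12.4% and 33.0% against 14.1% and 16.3% of all genes. The median log2 fold change over the 97 genes was -0.11, against 0.21 for the 10 core genes. The groups did not overlap for 12 of the 97 genes, and for 6.64% of all genes tested. With library totals as the only scaling, the median of all genes moved up by 0.20, and 34 of the 97 genes were higher.

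Of 14 partners and regulators of NRF2 tested, 1 was higher and 1 was lower, or 7.14% each, below the shares of all genes (14.1% and 16.3%). *Mafk*, a small MAF partner of NRF2, rose (log2 fold change 0.27, adjusted p = 0.00788, edgeR), from a range of 28.2 to 37.8 CPM to one of 34.9 to 41.6 CPM. *Nfe2l1*, a relative of *Nfe2l2* that drives proteasome genes, fell by 0.47 on the log2 scale (adjusted p = 0.00126, edgeR), and its ranges of 487.6 to 686.5 CPM in fl/fl and 413.6 to 471.7 CPM in iADKO did not overlap. The remaining 12 did not pass, among them *Bach1*, the heme-sensitive repressor of *Hmox1* (log2 fold change 0.32, adjusted p = 0.0664, edgeR). With the series as a block 0 of the 14 were higher and 1 was lower, and with the macrophage covariate 0 were called in either direction (edgeR).

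Of 16 detoxification genes tested, 5 were higher and 2 were lower, or 31.2% and 12.5%, against 14.1% and 16.3% of all genes. The higher ones were *Osgin1*, *Ephx1*, *Akr1b8*, *Ptgr1* and *Cbr3*, with log2 fold changes of 0.55, 0.51, 0.49, 0.48 and 0.45. For *Ephx1*, the microsomal epoxide hydrolase gene (98.2 to 129.4 CPM in fl/fl, 150.7 to 194.5 CPM in iADKO), and *Akr1b8*, an aldo-keto reductase gene (23.1 to 26.7 and 31.3 to 41.2 CPM), the groups did not overlap. *Aox1*, the aldehyde oxidase gene, fell by 0.80 on the log2 scale and *Cbr1*, a carbonyl reductase gene, fell by 0.34. The groups of *Aox1* did not overlap either (136.4 to 237.8 CPM in fl/fl, 63.9 to 126.1 CPM in iADKO). Of all genes tested, 6.64% had groups that did not overlap. The count of higher genes was 4 or 5 in each of the 13 fits without 1 library, 2 with the series as a block, and 2 with the macrophage covariate.

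Of the 23 glutathione enzymes tested, 2 were higher and 10 were lower. These are 8.7% and 43.5%, against 14.1% and 16.3% of all genes. *Glrx*, the glutaredoxin gene, rose from 9.55 to 12.2 CPM in fl/fl to 15.5 to 21.3 CPM in iADKO (log2 fold change 0.72, adjusted p = 0.000162, edgeR), and *Gpx1*, a cytosolic glutathione peroxidase gene, rose by 0.39. *Gsta3*, *Mgst2* and *Gpx4*, genes of 2 glutathione transferases and of the peroxidase that acts on lipid hydroperoxides, fell by 1.01, 0.77 and 0.70. Also lower were *Gpx3*, *Oplah*, *Gstk1*, *Mgst3*, *Gstm2*, *Mgst1* and *Chac2*. Scaled by library totals, 6 were higher and 8 lower. With the series as a block 2 were higher and 5 lower, and with the macrophage covariate 1 was higher and 0 were lower (edgeR). Not tested for low counts were *Ggt1*, *Gpx2*, *Gsta1* and *Gsta2*.

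Of 15 thioredoxin and peroxiredoxin genes, 1 was higher (*Sesn1*, 0.24) and 7 were lower. These are 6.67% and 46.7%, against 14.1% and 16.3% of all genes. Beside the rise of *Txnrd1*, the other thioredoxin reductase genes were lower: *Txnrd3* fell by 0.67 and *Txnrd2*, which encodes the mitochondrial enzyme, fell by 0.57 on the log2 scale. *Msra*, a methionine sulfoxide reductase gene, fell by 0.60, and *Prdx6*, *Prdx3*, *Msrb1* and *Prdx2* were also lower. Scaled by library totals, 5 were higher and 3 lower. With the series as a block 3 were lower, and with the macrophage covariate 1 was lower.

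All 6 genes of the NADPH supply list were lower, against 16.3% of all genes. NADPH is the reductant used by *Txnrd1*, *Gsr* and *Nqo1* products. *Tkt* and *Taldo1*, of the pentose phosphate pathway, are on the list but do not make NADPH themselves. All 6 fell: *Me1* by 1.94, *Tkt* by 1.63 and *G6pdx* by 0.98 on the log2 scale, with *Pgd*, *Taldo1* and *Idh1* between -0.85 and -0.55. The count was 6 of 6 in all 13 fits without 1 library and with library totals, 5 with the series as a block and 1 with the macrophage covariate. *Me1* ranged from 465.6 to 2816 CPM in fl/fl and from 325.6 to 731.2 CPM in iADKO. These genes are abundant in adipocytes, whose 8 markers summed to between 16320 and 25180 CPM in fl/fl and between 10440 and 17960 CPM in iADKO. The part of the adipocyte share in their values was not tested.

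Superoxide dismutases and catalase were lower in 2 of 4 cases, or 50%, against 16.3% of all genes. The falls were 0.76 for *Cat* and 0.39 for *Sod2* on the log2 scale. Of 9 heme and iron genes, *Ftl1*, the ferritin light chain gene, was higher (log2 fold change 0.39, adjusted p = 0.0185, edgeR). *Fech* and *Alas1*, of heme synthesis, fell by 0.41 and 0.38. The list thus had 11.1% higher and 22.2% lower, against 14.1% and 16.3% of all genes. *Slc7a11* is also a target of the stress factor ATF4. Of 10 genes of the ATF4 response, *Atf3* (log2 fold change 1.44) and *Ddit3* (0.59) were higher, while *Chac1* fell by 0.66 and *Asns* by 0.49. That is 20% in each direction, against 14.1% higher and 16.3% lower over all genes. *Atf4* itself did not pass (0.18, adjusted p = 0.14, edgeR). With the series as a block, 1 of the superoxide dismutases and catalase was lower. The heme and iron genes then had 0 higher and 2 lower, and those of the ATF4 response 2 higher and 1 lower. With the macrophage covariate, 0 genes of these lists were called in either direction (edgeR).

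**Figure D5:**
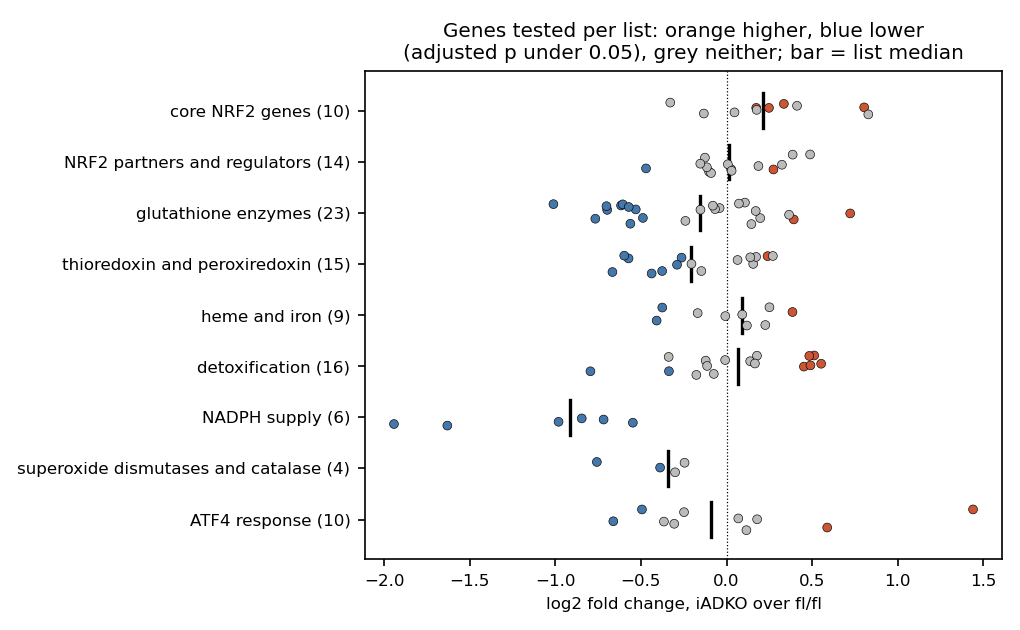
Log2 fold change of iADKO over fl/fl (x axis) for every gene tested in the 10 core genes and 8 further lists (y axis, number tested in parentheses), orange for higher and blue for lower at an adjusted p under 0.05 (edgeR), grey for neither, with the list median as a bar. The 6 genes of the NADPH supply list were all lower, from -1.94 to -0.55, while the 10 core genes ran from -0.33 to 0.83.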

How the data were processed

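The authors deposited raw counts per gene for 33618 Ensembl identifiers, and log2 values made from them with DESeq2's regularized log (rlog), which recomputed rlog values matched within 4.66e-08. Strand-specific mRNA libraries were aligned to mm39 with STAR 2.7.11a after FastQC 0.12.1, per the submitters' processing notes. The counting tool, its strand setting and the annotation are not given in the sources used here. Of the identifiers, 33184 were in GENCODE vM39 (GRCm39), which gave symbols, positions and promoters.

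In R 4.3.3, edgeR 4.0.16 (filterByExpr, TMM, robust quasi-likelihood test) compared all 7 fl/fl and 6 iADKO libraries with no covariate. log2 CPM use a prior count of 2. The test was checked on simulated counts. DESeq2 1.42.0, limma 3.58.1 on rlog values, other filters and scalings, blocks, a macrophage covariate and fits without single libraries were alternatives. For *Lmna*, a two-sided exact permutation test used all 1716 splits (p = 0.0472, smallest possible 0.000583).

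The 10 genes and all lists were chosen with earlier results of these data known. Named were *Lmna*, the 10 genes, in each further list up to 3 higher and 3 lower genes with the largest changes, and the 2 genes most correlated with each of the 10. Other names (*Bach1*, *Atf4*, *Ptgr1*, *Cbr3*, *Pgd*, *Taldo1*, *Idh1* and those listed without values) were added after their values were seen. Mice of a genotype differed by more than counting error (chi-square over degrees of freedom 8.16 to 88.8). Errors marked SD are the spread between mice, and those marked SE are the standard error of the log2 fold change in the edgeR fit.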

Additional observations from a re-analysis of the deposited data

Results flagged for a closer look

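Of 22 sets of values (the 10 genes and *Lmna* in each genotype), 4 held a mouse that lay far from the others by Dixon's test, which chance alone gives in about 1 of 20. *Slc7a11* was 17.2 CPM in fl/fl replicate 5, with the next fl/fl mouse at 6.90 CPM, and 13.9 CPM in iADKO replicate 1, with the next iADKO mouse at 9.26 CPM. In iADKO replicate 6, *Srxn1* was 41.3 CPM, with the next mouse at 57.7 CPM, and *Txnrd1* was 86.2 CPM, with the next at 96.7 CPM. The macrophage marker mean of fl/fl replicate 5 was 7.70 on the log2 CPM scale, against 6.69 to 7.23 in the other fl/fl mice, and that of iADKO replicate 6 was 7.08, against 7.66 to 7.86 in the other iADKO mice. The part of these cells in the values was not tested.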

How the results depend on the processing

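*Nfe2l2* and *Hmox1* were called in all 13 fits without 1 library, with DESeq2's size factors, with the DESeq2 Wald test, with at least 10 counts in every library, with limma on rlog values and with the replicate block, but not with the animal-number series as a block or the macrophage covariate, and *Nfe2l2* was not called when low counts were left unfiltered (adjusted p = 0.0836). The number of the 10 genes called higher was 4 with all libraries, 7 with library totals and no TMM factors, 1 with no filter, 0 with the series block, 0 with the macrophage covariate, and 2 to 5 without single libraries. The number called lower was 1 with DESeq2's size factors in edgeR, 2 with the DESeq2 Wald test, 2 without fl/fl replicate 5 and iADKO replicate 6, and 0 to 2 without single libraries. Without those 2 libraries *Nfe2l2*, *Hmox1*, *Txnrd1* (0.29, adjusted p = 0.0178, edgeR) and *Srxn1* (0.46, adjusted p = 0.000443, edgeR) kept their calls. *Keap1* and *Gclm*, both lower, and *Slc7a11* (1.57, adjusted p = 0.00225, edgeR) were called in addition. Of the 97 further genes, 34 were higher with library totals, 6 with the series block, 3 with the macrophage covariate and 10 to 18 without single libraries. With the series block 20 were lower, with the macrophage covariate 2, and without single libraries 28 to 38. For *Lmna* the log2 fold change was 0.40 with library totals (adjusted p = 0.00101), 0.19 without the 2 libraries (adjusted p = 0.0344) and 0.15 to 0.24 without single libraries, called without fl/fl replicate 1 or iADKO replicate 6. Signs turned for *Keap1* (0.073 with library totals), *Gclc* (-0.023 with the series block, -0.046 without the 2 libraries, -0.0068 to 0.092 without single libraries), *Srxn1* (-0.052) and *Slc7a11* (-0.071), the latter 2 with the macrophage covariate, and, within single animal-number series, for *Keap1* (0.034), *Gclm* (0.11), *Nqo1* (-0.27) and *Gclc* (-0.22). The causes were not tested. Over all genes the calls were 2367 higher and 2737 lower, 7397 and 1276 with library totals, 784 and 1202 with the series block, and 221 and 303 with the macrophage covariate. Same-numbered mice correlated above 0.1 in 3 of 6 pairs, with a mean r of 0.11 against -0.02 for other pairs. These values do not settle whether the numbers pair mice. The replicate block, without fl/fl replicate 7, gave 4833 calls against 5104 and 5 of the 10 genes higher, *Gsr* added (0.26, adjusted p = 0.0378). The lowest count of any of the 10 genes in a library was 35, for *Slc7a11*.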
